A study of Mus musculus with 24 samples.

Results

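Slc2a1, Slc2a3, Pfkp, Pgk1, Ldha, Pdk1, Bnip3, Egln3, Vegfa and Bhlhe40, genes of the response to low oxygen and of glycolysis, were followed at the mRNA level in mouse embryonic stem cells (mESCs) that lack one accessory subunit of the ISWI chromatin remodelers. They were chosen by symbol, and all 10 were found among the 24594 genes of the count table. All 10 were also among the 15682 genes that passed the filter on low counts and were tested. The study holds 24 RNA-seq libraries in 5 batches, which are named A to E, and each batch has its own wild-type (WT) libraries. WT cells are 129S6/SvEvTac mESCs grown on gelatin in medium with serum and leukaemia inhibitory factor, and each deletion line is a single clone made from them with CRISPR–Cas9. Batch A holds 2 WT libraries, 2 libraries of Rsf1Δ (the RSF subunit) and 2 of WstfΔ (the WICH subunit, gene Baz1b). Batch B holds 2 WT and 2 Tip5Δ libraries (the NoRC subunit, gene Baz2a), and batch C holds 2 WT and 2 BptfΔ libraries (the NURF subunit). Batch D holds 3 WT libraries and 3 libraries labelled Cecr2Δ (the CERF subunit), and batch E holds 2 WT and 2 Acf1Δ libraries (the ACF and CHRAC subunit, gene Baz1a). Because each genotype is 1 clone, the effect of the deletion and other properties of the clone cannot be told apart, and p-values measure only the spread between these libraries.

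In background, the hypoxia-inducible factors (HIFs) are transcription factors made of an oxygen-sensitive alpha subunit and a stable partner, ARNT. With oxygen present, the EGLN prolyl hydroxylases mark the alpha subunit, the VHL ubiquitin ligase binds the mark, and the alpha subunit is degraded. When oxygen is short the alpha subunit stays, binds DNA at a short core motif and raises genes for glucose uptake, glycolysis, mitochondrial turnover and vessel growth. Pluripotent cells in culture take up much glucose and run glycolysis at a high rate with oxygen present, so the glycolytic members of this group are abundant in them without low oxygen. The HIF alpha subunits are controlled mainly at the protein level, which RNA-seq does not measure.

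The members cover successive roles. SLC2A1 (GLUT1) and SLC2A3 (GLUT3) carry glucose into the cell. PFKP, the platelet type of phosphofructokinase, and PGK1, phosphoglycerate kinase, are enzymes of glycolysis. LDHA turns pyruvate into lactate, and PDK1 inhibits pyruvate dehydrogenase and so holds pyruvate back from the mitochondria. BNIP3 is a mitochondrial outer membrane protein that marks mitochondria for autophagy. EGLN3 is one of the HIF prolyl hydroxylases and is itself a HIF target, VEGFA is the secreted growth factor of blood vessels, and BHLHE40 (DEC1) is a transcriptional repressor induced by low oxygen and by other signals.

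RefSeq promoters of the mouse assembly GRCm38.p6, from 250 bases before to 50 bases after the annotated start, were given for 8 of the 10 members in 11 windows, because Ldha, Pdk1 and Vegfa have 2 starts each. Slc2a3 and Bhlhe40 had no window in this table. The HIF core motif was searched on both strands as ACGTG or GCGTG. At least 1 match was present in 9 of the 11 windows (81.8%), against 14380 of all 32851 windows of the same length (43.8%). ACGTG alone was found in 54.5% of the member windows and 19.6% of all windows, and GCGTG alone in 63.6% and 32.4%. Overlapping matches on the 2 strands were each counted. A match is a description of the letters and does not show binding. The windows of 6 members are printed because, among the 8 members with a window, the largest changes concern these genes. Each is written 5′ to 3′ on the strand of its gene, with every match in capitals, and a match on the opposite strand reads CACGT or CACGC.
Ldha (chr7:46845554-46845853, plus strand): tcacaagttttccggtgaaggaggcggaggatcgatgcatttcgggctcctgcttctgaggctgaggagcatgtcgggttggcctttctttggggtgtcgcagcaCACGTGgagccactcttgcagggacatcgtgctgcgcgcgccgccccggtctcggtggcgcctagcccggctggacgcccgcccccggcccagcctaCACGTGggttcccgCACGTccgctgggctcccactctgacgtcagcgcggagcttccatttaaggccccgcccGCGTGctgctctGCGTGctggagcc
Pdk1 (chr2:71872974-71873273, plus strand): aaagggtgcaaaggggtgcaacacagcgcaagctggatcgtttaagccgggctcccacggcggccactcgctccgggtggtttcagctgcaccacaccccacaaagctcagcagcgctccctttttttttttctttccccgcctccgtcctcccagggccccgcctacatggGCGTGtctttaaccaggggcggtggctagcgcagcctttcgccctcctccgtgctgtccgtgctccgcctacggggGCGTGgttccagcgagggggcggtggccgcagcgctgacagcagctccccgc
Bnip3 (chr7:138909457-138909756, minus strand): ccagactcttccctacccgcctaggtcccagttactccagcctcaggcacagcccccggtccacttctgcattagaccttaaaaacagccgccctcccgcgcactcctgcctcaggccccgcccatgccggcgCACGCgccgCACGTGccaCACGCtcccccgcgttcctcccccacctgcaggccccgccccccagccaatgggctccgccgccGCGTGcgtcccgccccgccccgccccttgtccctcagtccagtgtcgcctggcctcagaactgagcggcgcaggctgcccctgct
Egln3 (chr12:54203825-54204124, minus strand): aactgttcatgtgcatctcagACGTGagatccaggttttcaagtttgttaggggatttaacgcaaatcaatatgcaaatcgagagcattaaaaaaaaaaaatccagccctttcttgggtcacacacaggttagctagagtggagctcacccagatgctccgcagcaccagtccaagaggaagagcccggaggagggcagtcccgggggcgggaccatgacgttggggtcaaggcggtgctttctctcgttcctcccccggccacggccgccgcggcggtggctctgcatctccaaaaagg
Slc2a1 (chr4:119108495-119108794, plus strand): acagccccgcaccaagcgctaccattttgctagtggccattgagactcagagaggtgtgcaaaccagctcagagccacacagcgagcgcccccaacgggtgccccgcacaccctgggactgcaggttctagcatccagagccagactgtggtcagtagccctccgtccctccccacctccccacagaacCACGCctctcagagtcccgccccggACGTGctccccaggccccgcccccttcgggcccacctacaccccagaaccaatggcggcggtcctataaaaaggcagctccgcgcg
Vegfa (chr17:46032328-46032627, minus strand): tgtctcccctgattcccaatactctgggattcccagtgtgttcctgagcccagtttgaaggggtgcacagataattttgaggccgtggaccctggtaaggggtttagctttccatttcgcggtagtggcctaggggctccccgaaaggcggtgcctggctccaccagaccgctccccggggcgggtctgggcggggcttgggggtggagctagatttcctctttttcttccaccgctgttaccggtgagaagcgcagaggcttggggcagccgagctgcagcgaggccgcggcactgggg

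The Ldha window holds 5 matches to ACGTG and 2 to GCGTG, and the Bnip3 window holds 2 and 3. The Pdk1 window holds 2 matches to GCGTG. The Egln3 window holds 1 match to ACGTG, and the Slc2a1 window holds 1 of each. The printed Vegfa window, at its first start, has no match, and the window at its second start, not printed, holds 1 of each. Conversely, the window at the second start of Pdk1 has no match, and that of Ldha holds 2 matches to GCGTG. The windows printed are those of the first listed start, and how the matches relate to the direction of change was not tested.

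The authors deposited counts per gene, and library totals ran from 13.4 to 36.7 M (mega) in sum. Levels are given as normalized CPM, the usual count per mega of library size, with library sizes scaled by TMM factors. Rsf1, Baz1b, Bptf and Baz1a mRNA were lower in their own lines (log2 fold changes -2.26, -2.40, -1.97 and -1.72). Baz2a was at -0.26 in Tip5Δ (edgeR adjusted p = 0.0533). In contrast, the libraries labelled Cecr2Δ had more Cecr2 mRNA than their WT (log2 fold change 0.37, edgeR adjusted p = 0.000154), so the mRNA does not check their label and they are named by it throughout. The study's methods state that clones were checked with western blots and by sequencing of DNA, data not analysed here. Libraries of batch C stood apart: Rpph1, a non-coding RNA without a poly(A) tail, was at 3298 to 4804 CPM of all counts, without TMM factors, in its 4 libraries and at most 3.39 in the other 20. BptfΔ was therefore compared only with WT of the same batch, and so was every other line. The 6 pluripotency markers Pou5f1, Sox2, Nanog, Zfp42, Esrrb and Klf4 were present in every group, with a summed level of 2527 to 4117 normalized CPM. At an edgeR adjusted p under 0.01, all 6 rose in Rsf1Δ and WstfΔ (median log2 fold changes 0.34 and 0.63), where 7.45% and 16.4% of all genes rose. In BptfΔ 5 rose (median 0.65, 21.4% of all genes) and with the Cecr2Δ label 4 rose (median 0.25, 9.52%). In Acf1Δ 2 rose and 2 fell (15.1% and 16.7% of all genes). In Tip5Δ the median was -0.041. Their part in the changes of the members was not tested.

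Other cell states moved with some lines. The 7 primitive endoderm markers (Gata4, Gata6, Sox17, Sox7, Pdgfra, Dab2 and Foxa2) all fell in Rsf1Δ, WstfΔ, Tip5Δ, BptfΔ and the libraries labelled Cecr2Δ. At the same edgeR threshold, an adjusted p under 0.01, 13.1%, 18.3%, 6.23%, 20.2% and 8.83% of all genes fell in these lines, in that order. Their summed level went from between 329.6 and 338 normalized CPM in WT of batch A to between 139 and 147 in Rsf1Δ and between 133 and 139 in WstfΔ, and from between 145 and 153 in WT of batch C to between 13.9 and 14.4 in BptfΔ. It was 333 to 353 in WT and 73.1 to 80.2 in Tip5Δ, 101 to 117 in WT and 29.5 to 34.1 in the libraries labelled Cecr2Δ, and 242 to 249 in WT and 268 to 306 in Acf1Δ. The 4 primed epiblast markers (Fgf5, Otx2, Pou3f1 and Dnmt3b) all fell in Rsf1Δ, WstfΔ and BptfΔ, from a summed level of 454 to 459.9 in WT to 346 to 355 in Rsf1Δ and 176 to 178 in WstfΔ, and from 412 to 427 in WT to 112 to 116 in BptfΔ. With the Cecr2Δ label, in contrast, 3 of the 4 rose and Dnmt3b fell, where 9.52% of all genes rose and 8.83% fell. The sum was 322 to 338 in WT and 302 to 314 in these libraries. In Acf1Δ Fgf5 and Otx2 fell, where 16.7% of all genes fell, and in Tip5Δ the median log2 fold change was 0.085. No defining marker of either list was at 0 in any group. In bulk RNA, fewer cells of a type and less RNA per cell cannot be told apart, and the part of these cell states in the changes given below was not tested. Markers of primitive streak and mesoderm summed to at most 9.46 normalized CPM, and this sum went from between 5.07 and 6.20 in WT of batch A to between 8.63 and 9.46 in WstfΔ, where Eomes rose (log2 change 1.05, adjusted p = 5.84e-05). T fell in BptfΔ (log2 change -4.44, adjusted p = 3.08e-06) and Tbx6 in Acf1Δ (log2 change -1.84, adjusted p = 0.00519). Erythroid markers summed to at most 2.55, and Gata1 fell with the Cecr2Δ label (log2 change -1.13, adjusted p = 0.000361). Of the 6 fibroblast markers, 5 were tested, and 3 of these fell in Rsf1Δ, WstfΔ, Tip5Δ, BptfΔ and Acf1Δ each, with values given beside the collagen genes below.

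In WT cells Ldha, both glucose transporters and Pgk1 were abundant per kilobase of gene width, and the other 6 members were lower. This split depends on the width, which is 2244 bases for Pgk1, 7779 for Pdk1 and 13401 for Pfkp. Without the division their WT ranges overlapped, at 167 to 222 normalized CPM for Pgk1, 152 to 224 for Pdk1 and 137 to 193 for Pfkp. Divided by gene width, Ldha had the highest level with 264 ± 41.7 normalized CPM per kilobase (SD, n = 11 libraries), followed by Slc2a3 with 166 ± 49.0, Slc2a1 with 94.9 ± 17.5 and Pgk1 with 83.0 ± 7.33. Pdk1 followed with 23.1 ± 3.15, Vegfa with 13.4 ± 4.2 and Pfkp with 12.3 ± 1.52. Bhlhe40 was at 8.68 ± 4.07, Egln3 at 5.10 ± 0.80 and Bnip3 at 4.42 ± 1.22. Not every step of this order held in each library. Slc2a3 was above Slc2a1 in 8 of 11 libraries and Slc2a1 above Pgk1 in 9. Pgk1 was above Pdk1 in 11 and Pdk1 above Vegfa in 10, whereas Vegfa was above Pfkp in only 6 and Pfkp above Bhlhe40 in 7. Ldha was above Slc2a3 in 9, and the exceptions were the WT libraries of batch B. Bhlhe40 was above Egln3 in 8 of 11, and Egln3 was above Bnip3 in 8.

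**Figure D1:**
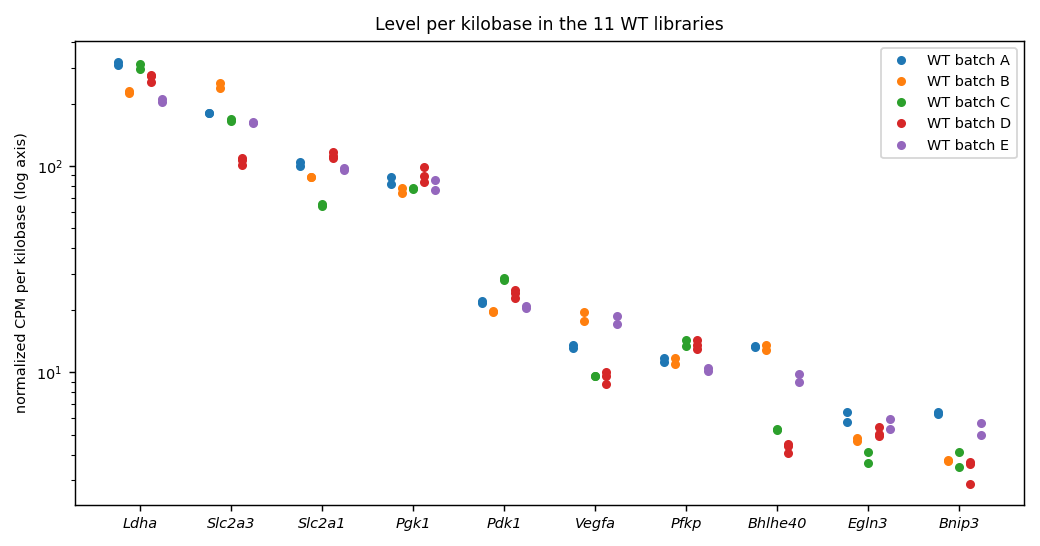
Level of the 10 genes per kilobase of gene width in the 11 WT libraries. The horizontal axis lists the genes in order of their mean, the vertical log axis gives normalized CPM per kilobase, and each point is 1 library coloured by batch. Ldha, Slc2a3, Slc2a1 and Pgk1 lie between 64.0 and 320 and the other 6 genes below 29, and Slc2a3, Vegfa and Bhlhe40 separate most clearly by batch.

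The WT batches themselves differed for all 10 members at an adjusted p under 0.01, which 73.1% of all genes tested also did. The difference was widest for Bhlhe40, with 43.7 normalized CPM in batch A and 14.2 in batch D, a ratio of 3.09. It was 2.32 for Slc2a3, with 1773 normalized CPM in batch B and 765 in batch D, and 1.97 for Vegfa, with 80.0 in batch B and 40.6 in batch D. It was smallest for Pgk1, with a ratio of 1.19. A change against WT of another batch would therefore mix in the batch, and the model has batch as a term.

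Against WT of their own batch, the members changed most in WstfΔ and BptfΔ. Here and below, changed, rose and fell mean an edgeR adjusted p under 0.01, and a differentially expressed gene (DEG) also has an absolute log2 fold change over 1. In WstfΔ, 8 of the 10 members rose and 0 fell, where 34.7% of all genes changed, 16.4% up and 18.3% down. Leaving out 1 library in turn gave 5 to 7, with 5 without WstfΔ replicate 1. In BptfΔ, 2 rose and 6 fell, where 41.6% of all genes changed, 21.4% up and 20.2% down. Among the libraries labelled Cecr2Δ, 5 rose and 0 fell (18.4% of all genes changed, 9.52% up and 8.83% down). In Acf1Δ 3 rose and 3 fell (31.8% changed, 15.1% up and 16.7% down). The Acf1Δ count was lower without each single library and when Acf1Δ was fitted alone with its WT, as given in the part on processing. In Rsf1Δ 1 rose and 2 fell (20.6% changed, 7.45% up and 13.1% down), and in Tip5Δ 1 rose and 1 fell (9.07% changed, 2.84% up and 6.23% down). For so short a list the counts in Rsf1Δ and Tip5Δ are near the background in this fit. The Tip5Δ count moved with the fit, to 7 of 10 (24.6% of all genes) when Tip5Δ was fitted alone with its WT, to 4 (9.18%) with library size only, and to 0 to 1 without single libraries. DEGs among the members numbered 5 in BptfΔ (13.8% of all genes), 2 in WstfΔ (10.4%), 1 in Acf1Δ (4.45%) and 1 in Rsf1Δ (5.91%). Without WT replicate 2 of batch A or WstfΔ replicate 1 the WstfΔ count was 1. They numbered 0 in Tip5Δ (2.72%) and 0 with the Cecr2Δ label (3.11%). DESeq2 gave the same 0 DEGs in both. By edgeR no member had an absolute log2 fold change over 1 there, and 2 and 5 members passed the adjusted p alone. The largest changes were -0.49 for Bnip3 in Tip5Δ and 0.81 for Egln3 with the Cecr2Δ label. No member fell at an unadjusted p under 0.05 in WstfΔ or with the Cecr2Δ label (0 and 0), by edgeR, and 0 fell by DESeq2.

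The median log2 fold change of the 10 members was 0.52 in WstfΔ and -0.53 in BptfΔ. It was 0.23 in the libraries labelled Cecr2Δ, 0.02 in Rsf1Δ, -0.09 in Tip5Δ and -0.06 in Acf1Δ. The median of all genes tested lay between -0.026 and 0.015 in the 6 lines. The changes of the members differed between the 6 lines for all 10 genes at an adjusted p under 0.01, as they did for 65.3% of all genes. Rsf1Δ and WstfΔ share their WT libraries. Some changes stayed within what WT batches span: the members that changed and also lay beyond all 11 WT libraries numbered 7 in WstfΔ (17.6% of all genes), 7 in BptfΔ (28.3%), 2 in Tip5Δ (4.34%), 2 with the Cecr2Δ label (7.59%), 2 in Acf1Δ (7.46%) and 1 in Rsf1Δ (5.88%).

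**Figure D2:**
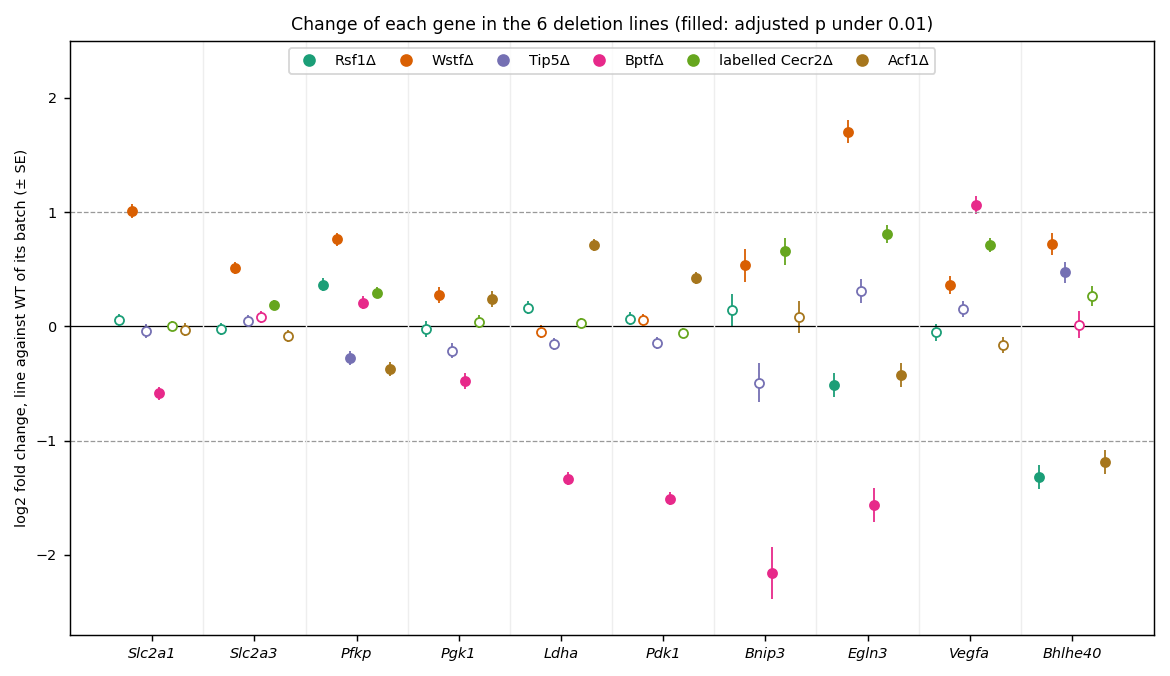
Change of each of the 10 genes in the 6 deletion lines. The vertical axis gives the log2 fold change of a line against WT of its batch with its standard error, colours mark the lines, filled points have an edgeR adjusted p under 0.01, and dashed lines mark a log2 fold change of 1 and -1. BptfΔ gives the lowest points for Ldha, Pdk1, Bnip3 and Egln3, and WstfΔ the highest for Slc2a1, Pfkp and Egln3.

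Glucose transporters rose in WstfΔ, and one of them fell in BptfΔ. Slc2a1 (gene ID 20525, chr4:119108745-119137330) was at 368 and 352 normalized CPM in the WT libraries of batch A and at 756 and 692 in WstfΔ. Both WstfΔ libraries lay above all 11 WT libraries, whose highest was 412. The increase was 2.01-fold (log2 fold change 1.01, SE 0.059, edgeR adjusted p = 1.41e-13). In BptfΔ Slc2a1 was at 147 and 155, against 229 and 224 in WT of batch C. Both were below every WT library of the study (log2 fold change -0.59, SE 0.061, edgeR adjusted p = 6.07e-09). In the other 4 lines Slc2a1 did not pass the test, with log2 fold changes from -0.042 to 0.052.

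Slc2a3 (gene ID 20527, chr6:122727809-122802363), the neuronal type of transporter that pluripotent cells also make, was at 1315 and 1304 normalized CPM in WT of batch A. It was at 1894 and 1842 in WstfΔ, above all WT libraries (log2 fold change 0.51, SE 0.053, edgeR adjusted p = 9.56e-09). With the Cecr2Δ label it was at 874, 864 and 869, against 730.2, 789 and 774 in WT of batch D. These groups did not overlap, and the increase was 1.14-fold (log2 fold change 0.18, SE 0.043, edgeR adjusted p = 0.00185), but the mean of 869 is lower than in the WT of the other 4 batches. Without WT replicate 1 the call was lost (edgeR adjusted p = 0.0131). In BptfΔ Slc2a3 was at 1270.4 and 1288 against 1223 and 1191 in WT and did not pass the test (log2 fold change 0.084, SE 0.053, edgeR adjusted p = 0.189). In BptfΔ Slc2a1 thus fell by 0.59 on the log2 scale and Slc2a3 was at 0.084, and the difference between the 2 genes was not tested.

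Pfkp (gene ID 56421, chr13:6579874-6649060) changed in all 6 lines, in 4 of them upwards. It was at 150.2 and 157 normalized CPM in WT of batch A, at 271 and 251 in WstfΔ and at 197 and 198 in Rsf1Δ. All 4 libraries of these lines lay above the 11 WT libraries, whose highest was 193, and WstfΔ lay above Rsf1Δ. The increases were 1.695-fold in WstfΔ (log2 fold change 0.76, SE 0.060, edgeR adjusted p = 4.98e-11) and 1.29-fold in Rsf1Δ (log2 fold change 0.36, SE 0.059, edgeR adjusted p = 2.17e-05). Pfkp also rose in the libraries labelled Cecr2Δ, from 193, 174 and 183 to 219.9, 223 and 231 (log2 fold change 0.29, SE 0.048, edgeR adjusted p = 3.02e-05). In BptfΔ it was at 217 and 213 against 192 and 179.8 (log2 fold change 0.21, SE 0.059, edgeR adjusted p = 0.00469), and this call was lost without WT replicate 2 (edgeR adjusted p = 0.0767), BptfΔ replicate 1 (0.0387) or BptfΔ replicate 2 (0.0197). It fell in Acf1Δ from 137 and 141 to 107 and 107 (log2 fold change -0.37, SE 0.060, edgeR adjusted p = 1.54e-05) and in Tip5Δ from 147 and 158 to 127 and 125 (log2 fold change -0.28, SE 0.060, edgeR adjusted p = 0.00161). The Tip5Δ call was lost without WT replicate 2 (edgeR adjusted p = 0.0563), Tip5Δ replicate 1 (0.0167) or Tip5Δ replicate 2 (0.0305).

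Pgk1 (gene ID 18655, chrX:106187100-106203699) moved little. It was at 176 and 174 normalized CPM in WT of batch C and at 128 and 124 in BptfΔ. Both BptfΔ libraries lay below all 11 WT libraries (log2 fold change -0.48, SE 0.070, edgeR adjusted p = 2.23e-06). In WstfΔ it was at 234 and 229.8 against 199.5 and 184 (log2 fold change 0.28, SE 0.068, edgeR adjusted p = 0.00171), and in Acf1Δ at 211 and 218 against 193 and 171 (log2 fold change 0.24, SE 0.068, edgeR adjusted p = 0.00553). These increases of 1.21-fold and 1.18-fold did not hold without each library. The call in WstfΔ was lost without WT replicate 2 (edgeR adjusted p = 0.0437), WstfΔ replicate 1 (0.0196) or WstfΔ replicate 2 (0.0101), and that in Acf1Δ without WT replicate 2 (0.13) or Acf1Δ replicate 2 (0.0382). The mouse genome holds processed copies of Pgk1 and Ldha, and how reads that match several places were counted is not given in the sources used here, so their levels are uncertain to that extent.

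Ldha (gene ID 16828, chr7:46842274-46855627) fell in BptfΔ and rose in Acf1Δ. It was at 1030.0 and 973 normalized CPM in WT of batch C and at 401 and 394 in BptfΔ. Both BptfΔ libraries were below the lowest WT library of any batch, which was at 679. The decrease was 2.52-fold (log2 fold change -1.33, SE 0.056, edgeR adjusted p = 9.64e-17). In Acf1Δ Ldha was at 1089.7 and 1169.5, against 679 and 701 in WT of batch E, the lowest WT batch for this gene. The Acf1Δ libraries lay above all 11 WT libraries, the highest of which was at 1058, and the increase was 1.64-fold (log2 fold change 0.71, SE 0.055, edgeR adjusted p = 1.78e-10). In WstfΔ, where the glucose transporters and Pfkp rose, Ldha was at 1029 and 984 against 1058 and 1021 and did not pass the test (log2 fold change -0.047, SE 0.055, edgeR adjusted p = 0.51). The difference between the changes in WstfΔ and BptfΔ was itself past the threshold (log2 difference 1.29, SE 0.079, edgeR adjusted p = 1.41e-12), as it was for 21.2% of all genes.

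Pdk1 (gene ID 228026, chr2:71873215-71903858) showed the same directions. It was at 224 and 218 normalized CPM in WT of batch C and at 78.2 and 76.9 in BptfΔ. The BptfΔ libraries were below every WT library, the lowest of which was at 152, and the decrease was 2.85-fold (log2 fold change -1.51, SE 0.057, edgeR adjusted p = 7.27e-18). In Acf1Δ it was at 222 and 210.2 against 162 and 159.5 (log2 fold change 0.42, SE 0.053, edgeR adjusted p = 5.33e-07), and both values fell inside what the 11 WT libraries span. In Rsf1Δ, WstfΔ, Tip5Δ and the libraries labelled Cecr2Δ the log2 fold changes of Pdk1 ran from -0.15 to 0.068 and did not pass the test.

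Bnip3 (gene ID 12176, chr7:138890836-138909506) had the largest decrease of any member. It was at 7.87 and 9.28 normalized CPM in WT of batch C and at 1.62 and 2.196 in BptfΔ. The BptfΔ libraries were below all 11 WT libraries, the lowest of which was at 6.55. The decrease was 4.47-fold (log2 fold change -2.16, SE 0.23, edgeR adjusted p = 1.03e-08). Bnip3 rose in the libraries labelled Cecr2Δ, from 8.199, 8.36 and 6.55 to 13.4, 10.98 and 12.2 (log2 fold change 0.66, SE 0.12, edgeR adjusted p = 0.000119), which stayed within the WT range of the other batches. In WstfΔ it was at 24.9 and 16.9 against 14.6 and 14.2 (log2 fold change 0.53, SE 0.14, edgeR adjusted p = 0.00373). The 2 WstfΔ libraries differed, and without the higher one, replicate 1, the log2 fold change was 0.23 (edgeR adjusted p = 0.295). Without WT replicate 1 or 2 of batch A the adjusted p was 0.0186 or 0.0277.

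Egln3 (gene ID 112407, chr12:54178981-54203874) spanned the widest range of changes. It was at 17.1 and 15.3 normalized CPM in WT of batch A and at 55.6 and 50.1 in WstfΔ. The highest of the 11 WT libraries was at 17.1, so both WstfΔ libraries stood well above WT, and the increase was 3.26-fold (log2 fold change 1.70, SE 0.10, edgeR adjusted p = 1.12e-13). With the Cecr2Δ label it was at 25.3, 21.5 and 25.1 against 14.5, 13.5 and 13.1, again above all WT libraries (log2 fold change 0.81, SE 0.079, edgeR adjusted p = 8.12e-09). In BptfΔ it was at 3.89 and 3.12 against 10.97 and 9.69. These were the lowest values of Egln3 in the study (log2 fold change -1.56, SE 0.15, edgeR adjusted p = 1.73e-09). The changes in WstfΔ and BptfΔ differed by 3.27 on the log2 scale (SE 0.18, edgeR adjusted p = 1.48e-13).

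Egln3 also fell in Rsf1Δ, from the WT values of batch A given above to 11.6 and 11.1 (log2 fold change -0.51, SE 0.11, edgeR adjusted p = 0.000515), and in Acf1Δ, from 15.8 and 14.2 to 11.05 and 11.3 (log2 fold change -0.42, SE 0.11, edgeR adjusted p = 0.0019). Both decreases stayed inside the range of the 11 WT libraries, and neither call held without each library. The first was lost without WT replicate 1 (edgeR adjusted p = 0.0183) or Rsf1Δ replicate 2 (0.0128), and the second without WT replicate 1 (0.0362), Acf1Δ replicate 1 (0.0128) or Acf1Δ replicate 2 (0.0117). Egln3 lies on the same chromosome as Baz1a, the gene deleted in Acf1Δ, 689 kb away (GRCm38). Of the 4 protein-coding genes between them, Sptssa rose in Acf1Δ (log2 fold change 0.36, edgeR adjusted p = 0.00285). Eapp was at -0.28 (edgeR adjusted p = 0.0393), and Snx6 and Cfl2 were at -0.067 and -0.03 (edgeR adjusted p = 0.475 and 0.804).

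**Figure D3:**
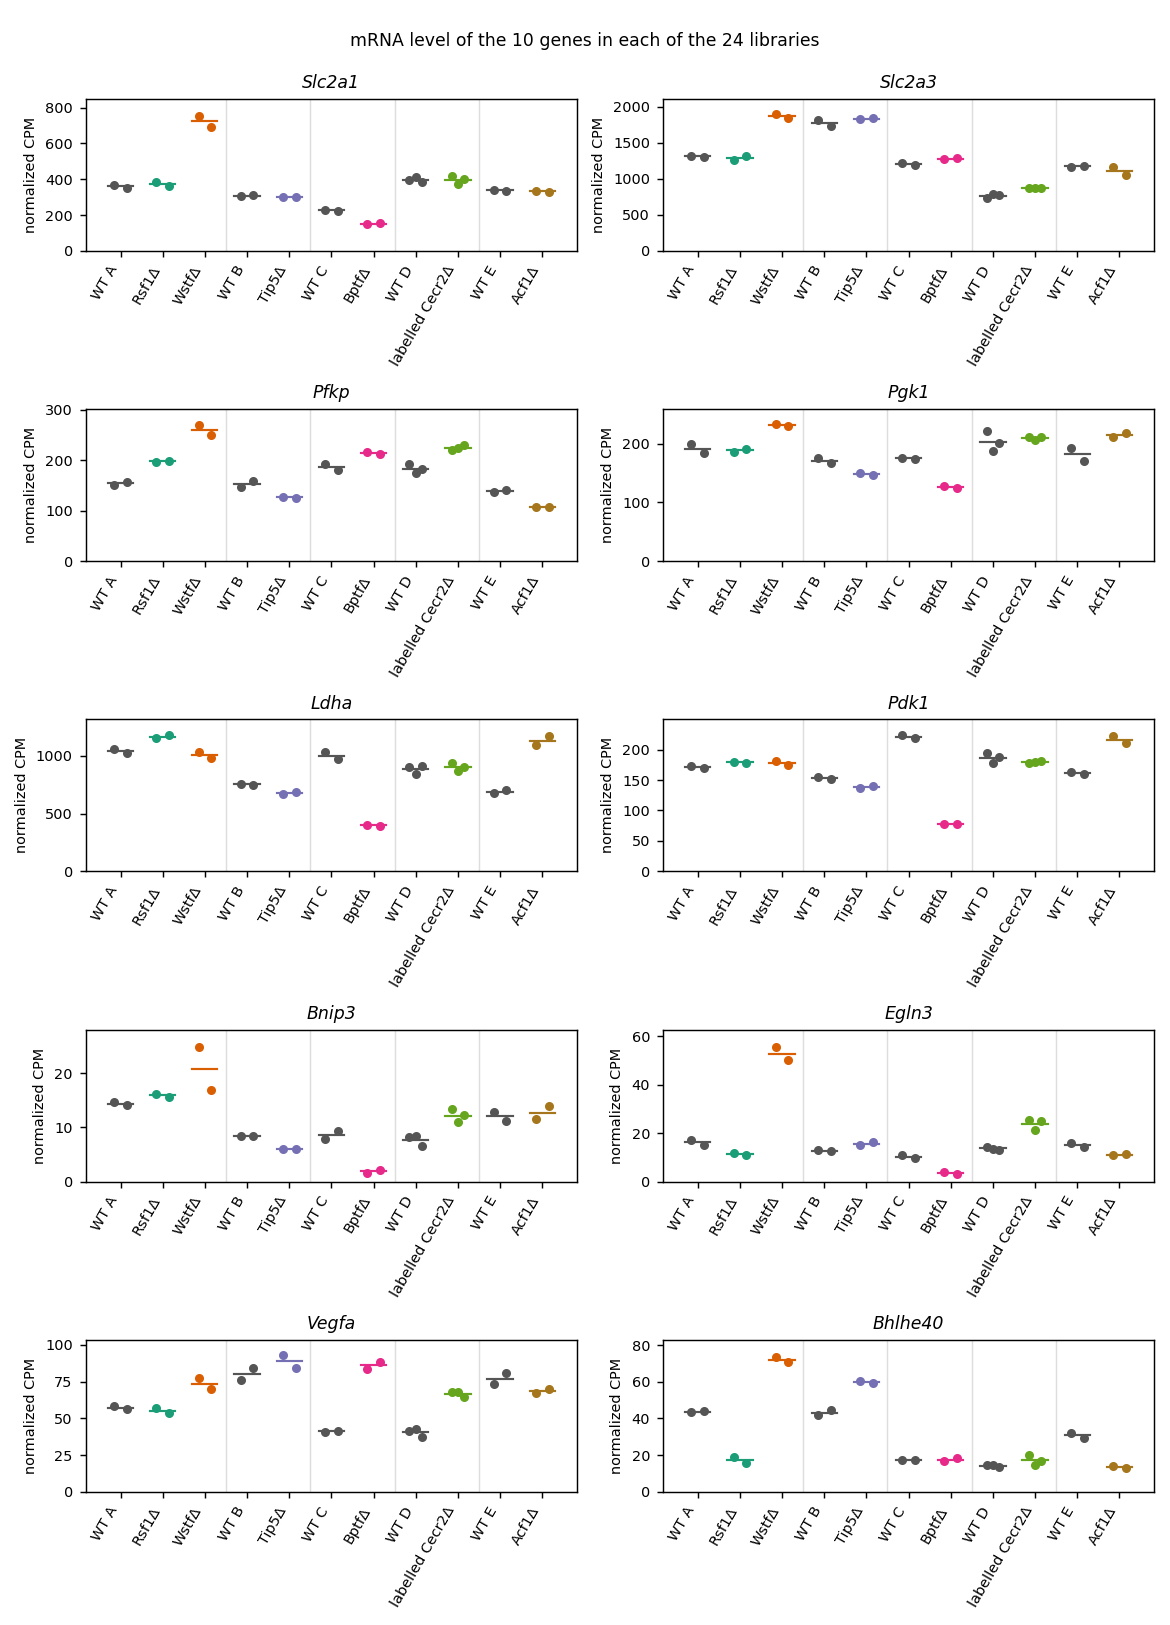
Level of the 10 genes in each of the 24 libraries, 1 panel a gene. The horizontal axis gives the group, with grey lines between the batches, the vertical axis gives normalized CPM from 0, points are libraries and bars are group means. In the Egln3 panel both WstfΔ points are above 50 and both BptfΔ points below 4, and in the Vegfa panel the 2 BptfΔ points are above 83 while WT of batch C is at 41.

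Vegfa (gene ID 22339, chr17:46016993-46032377) rose in BptfΔ, the line in which Ldha, Pdk1, Bnip3 and Egln3 fell. It was at 41.05 and 41.2 normalized CPM in WT of batch C and at 83.8 and 88.4 in BptfΔ. The groups did not overlap and the increase was 2.09-fold (log2 fold change 1.07, SE 0.078, edgeR adjusted p = 8.9e-12). The WT libraries of batch B reached 84.0, so the BptfΔ values were not all beyond WT of every batch. The BptfΔ call did not hold under every alternative fit, where the log2 fold change went down to 0.58 and the edgeR adjusted p up to 0.0498. Vegfa also rose in the libraries labelled Cecr2Δ, from 41.3, 42.97 and 37.6 to 68.2, 67.6 and 64.4 (log2 fold change 0.72, SE 0.061, edgeR adjusted p = 5.98e-10), and in WstfΔ, from 58.4 and 56.4 to 77.3 and 70.2 (log2 fold change 0.36, SE 0.077, edgeR adjusted p = 0.000338). Without WstfΔ replicate 1 the last of these was no longer called (edgeR adjusted p = 0.0177), and all of these values are inside the range of the 11 WT libraries. In Rsf1Δ, Tip5Δ and Acf1Δ it did not pass the test, with log2 fold changes from -0.16 to 0.15.

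Bhlhe40 (gene ID 20893, chr6:108660629-108666925) fell in Rsf1Δ and Acf1Δ and rose in WstfΔ and Tip5Δ. In batch A it was at 43.6 and 43.8 normalized CPM in WT, 19.1 and 15.96 in Rsf1Δ and 73.7 and 70.5 in WstfΔ. The 3 groups did not overlap, with Rsf1Δ lowest and WstfΔ highest. The decrease in Rsf1Δ was 2.498-fold (log2 fold change -1.32, SE 0.10, edgeR adjusted p = 9.26e-11) and the increase in WstfΔ 1.65-fold (log2 fold change 0.72, SE 0.10, edgeR adjusted p = 6.74e-07). In Acf1Δ Bhlhe40 was at 13.9 and 13.1 against 32.1 and 29.3, a 2.28-fold decrease (log2 fold change -1.19, SE 0.11, edgeR adjusted p = 2.08e-09). In Tip5Δ it was at 60.4 and 59.2 against 41.8 and 44.5 (log2 fold change 0.47, SE 0.094, edgeR adjusted p = 0.000647), and this call was lost without WT replicate 1 (edgeR adjusted p = 0.0202) or Tip5Δ replicate 1 (0.0119). The levels in Rsf1Δ and Acf1Δ are near those of WT in batches C and D, where the gene was at 13.3 to 17.4 normalized CPM. In BptfΔ and the libraries labelled Cecr2Δ Bhlhe40 did not pass the test (0.016 and 0.27 on the log2 scale, edgeR adjusted p = 0.924 and 0.0229). Without replicate 2 of the latter, the adjusted p was 0.00142.

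The 15 genes of the HIF pathway itself, which make, modify or degrade the factors, were all tested. Of them 5 rose and 2 fell in WstfΔ (16.4% of all genes rose and 18.3% fell), 5 rose and 3 fell in BptfΔ (21.4% and 20.2% of all genes), 6 rose and 3 fell in Acf1Δ (15.1% and 16.7%), and 2 rose and 1 fell in Rsf1Δ (7.45% and 13.1%). In Tip5Δ (2.84% and 6.23%) 0 rose and 1 fell, and with the Cecr2Δ label (9.52% and 8.83%) 1 rose and 0 fell by edgeR; at an unadjusted p under 0.05, 3 were higher in the former and 1 lower in the latter. The list's median log2 fold change was between -0.018 and 0.17 in the 6 lines.

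Hif1a, the alpha subunit made in most cells, was at 215 and 207 normalized CPM in WT of batch E and at 172 and 145 in Acf1Δ (log2 fold change -0.41, SE 0.066, edgeR adjusted p = 1.86e-05). It was at 219.9 and 217 in WT of batch C and at 182 and 178 in BptfΔ (log2 fold change -0.28, SE 0.067, edgeR adjusted p = 0.000977), and at 196 and 191 and 169 and 164 in WT of batch A and WstfΔ (log2 fold change -0.22, SE 0.068, edgeR adjusted p = 0.00986). Hif1a thus fell slightly in 3 lines, and the calls in BptfΔ and WstfΔ did not hold without each library, as given below. Its relation to the changes of the members was not tested. Epas1 (HIF-2 alpha) fell in Tip5Δ from 94.96 and 99.1 to 38.6 and 38.8, with no overlap (log2 fold change -1.32, SE 0.092, edgeR adjusted p = 1.36e-11), the one HIF pathway DEG there. Epas1 rose in Acf1Δ from 84.3 and 93.2 to 139 and 108 (log2 fold change 0.48, SE 0.086, edgeR adjusted p = 7.19e-05). In BptfΔ it did not pass the test (log2 change -0.28, adjusted p = 0.0167).

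Among the negative regulators, Egln1, the main oxygen-sensing hydroxylase, rose in WstfΔ (log2 change 0.69, adjusted p = 1.38e-05 by edgeR, as are those that follow) and in BptfΔ (log2 change 0.56, adjusted p = 0.000633) and fell in Rsf1Δ (log2 change -0.56, adjusted p = 0.000507). Egln2 rose in WstfΔ (log2 change 0.50, adjusted p = 3.24e-05) and BptfΔ (log2 change 0.40, adjusted p = 0.000298). Vhl rose in WstfΔ (log2 change 0.28, adjusted p = 0.00965), BptfΔ (log2 change 0.31, adjusted p = 0.00258) and Acf1Δ (log2 change 0.28, adjusted p = 0.0062). Hif1an, the asparaginyl hydroxylase of the alpha subunits, rose in Acf1Δ (log2 change 0.22, adjusted p = 0.00856). In BptfΔ, Egln3 and Egln1 thus had log2 fold changes of -1.56 and 0.56.

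The partner Arnt rose in WstfΔ (log2 change 0.23, adjusted p = 0.00278) and fell in Acf1Δ (log2 change -0.20, adjusted p = 0.00771). In BptfΔ the 2 largest decreases of the pathway were Hif3a (log2 change -1.05, adjusted p = 0.00116), an inhibitory alpha subunit in some of its forms, and Arnt2 (log2 change -0.93, adjusted p = 0.000108), a relative of Arnt. In Acf1Δ Ep300, a coactivator, was at 193 and 123 normalized CPM against 201 and 229 in WT (log2 change -0.44, adjusted p = 0.00823), and without replicate 2, the lower of its libraries, the log2 fold change was -0.15 (adjusted p = 0.336). In the same line Rbx1, a subunit of the VHL ligase, rose (log2 change 0.44, adjusted p = 1.32e-05). Cul2, the scaffold of that ligase, rose in Rsf1Δ (log2 change 0.27, adjusted p = 0.00142) and in the libraries labelled Cecr2Δ (log2 change 0.28, adjusted p = 0.000117). Of its adaptor pair, Elob rose and Eloc fell in WstfΔ (log2 change 0.38, adjusted p = 0.00023, and log2 change -0.41, adjusted p = 0.000411). Elob also rose in BptfΔ (log2 change 0.37, adjusted p = 0.000261), Rsf1Δ (log2 change 0.32, adjusted p = 0.00208) and Acf1Δ (log2 change 0.30, adjusted p = 0.00203), where Eloc rose too (log2 change 0.42, adjusted p = 0.000354). Many calls of this list rest on each library: of those made, 3 of 9 in Acf1Δ, 3 of 8 in BptfΔ, 4 of 7 in WstfΔ and 0 of 3 in Rsf1Δ held whichever library was left out. Calls were lost, with the highest edgeR adjusted p in brackets, for Hif1a in WstfΔ (0.0803 without WstfΔ replicate 2), Hif1a in BptfΔ (0.0143 without BptfΔ replicate 2), Egln1 in Rsf1Δ (0.0234 without Rsf1Δ replicate 2), Egln1 in BptfΔ (0.0127 without WT replicate 2), Vhl in WstfΔ (0.144 without WstfΔ replicate 2), Vhl in BptfΔ (0.0652 without BptfΔ replicate 2), Vhl in Acf1Δ (0.0996 without WT replicate 1) and Hif1an in Acf1Δ (0.145 without WT replicate 1). They were also lost for Arnt in WstfΔ (0.0667 without WstfΔ replicate 2), Arnt in Acf1Δ (0.144 without Acf1Δ replicate 2), Hif3a in BptfΔ (0.0176 without BptfΔ replicate 2), Cul2 in Rsf1Δ (0.0443 without Rsf1Δ replicate 1), Elob in Rsf1Δ (0.0545 without WT replicate 2), Elob in Acf1Δ (0.0933 without Acf1Δ replicate 2) and Eloc in Acf1Δ (0.0332 without Acf1Δ replicate 2).

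Of 27 other genes of glucose uptake, glycolysis and lactate export, 24 were tested, since the other 3, among them Hk3 and Slc2a2, had at most 7 counts in any library. In WstfΔ 11 rose and 1 fell, where 16.4% of all genes rose and 18.3% fell, and the list's median log2 fold change was 0.33. In BptfΔ 4 rose and 10 fell, where 21.4% of all genes rose and 20.2% fell, and the list's median was -0.15. In Acf1Δ 7 rose and 2 fell (15.1% and 16.7% of all genes), in Rsf1Δ 4 and 3 (7.45% and 13.1%), in the libraries labelled Cecr2Δ 3 and 2 (9.52% and 8.83%), and in Tip5Δ 2 and 1 (2.84% and 6.23%). The medians of these 4 lines were between 0.023 and 0.097.

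In WstfΔ the largest changes among them included Aldoc (aldolase C) and Slc2a4 (GLUT4). Aldoc was at 8.38 and 7.36 normalized CPM in WT and at 20.4 and 18.4 in WstfΔ, with no overlap (log2 fold change 1.30, SE 0.12, edgeR adjusted p = 6.51e-10). Slc2a4 is low, at no more than 2.93 normalized CPM in WstfΔ (log2 fold change 1.24, SE 0.30, edgeR adjusted p = 0.00119). In BptfΔ the largest were Hk1, Slc16a3 and Eno2. Hk1, the hexokinase of most tissues, rose from 54.5 and 51.9 to 137 and 133 (log2 fold change 1.34, SE 0.066, edgeR adjusted p = 2.05e-15). Slc16a3 (MCT4), which exports lactate, fell from 43.4 and 40.9 to 15.4 and 17.9 (log2 fold change -1.34, SE 0.12, edgeR adjusted p = 2.81e-10), and Eno2, the neuronal enolase, rose (log2 fold change 1.16, SE 0.19, edgeR adjusted p = 1.45e-05).

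Some paralogues moved apart in BptfΔ. These were chosen after their values were seen. Ldhb, which makes the other lactate dehydrogenase subunit, was at 58.5 and 57.8 in WT of batch C and at 109 and 109.6 in BptfΔ (log2 fold change 0.91, SE 0.074, edgeR adjusted p = 6.57e-11), while Ldha fell by 1.33 on the log2 scale. Hk2, the hexokinase known as a HIF target, was at 511 and 514 and 419.7 and 424 (log2 fold change -0.28, SE 0.056, edgeR adjusted p = 0.000144), opposite to Hk1. Pfkl, the liver type of phosphofructokinase, fell (log2 fold change -1.01, SE 0.067, edgeR adjusted p = 9.42e-13) while Pfkp rose by 0.21. Slc16a1 (MCT1) fell with Slc16a3 (log2 fold change -1.07, SE 0.054, edgeR adjusted p = 3.99e-15). In WstfΔ, in contrast, Hk1 (1.22), Hk2 (0.53), Ldhb (0.71), Pfkl (0.36) and Slc16a3 (0.91) all rose on the log2 scale, and Slc16a1 did not pass the test (log2 change -0.10, adjusted p = 0.119).

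In the other 4 lines different genes of the list led. In Acf1Δ the enolases Eno3 and Eno1 rose (log2 change 1.02, adjusted p = 7.97e-10, and log2 change 0.80, adjusted p = 3.51e-07) and Hk1 fell (log2 change -0.64, adjusted p = 1.16e-08). In Rsf1Δ Pfkfb3, which makes the activator of phosphofructokinase, fell (log2 change -0.63, adjusted p = 8.17e-06), and Eno1 and Gpi1, glucose phosphate isomerase, rose (log2 change 0.34, adjusted p = 0.00892, and log2 change 0.27, adjusted p = 0.000201). In Tip5Δ Pfkl fell (log2 change -0.32, adjusted p = 0.000769) and Ldhb and Hk2 rose (log2 change 0.29, adjusted p = 0.00387, and log2 change 0.25, adjusted p = 0.00214). With the Cecr2Δ label, Ldhb rose (log2 change 0.63, adjusted p = 2.15e-09) and Pfkfb2 fell (log2 change -0.39, adjusted p = 0.00251). Of the glycolysis genes named, calls were lost without single libraries for Slc2a4 in WstfΔ (0.0237 without WstfΔ replicate 2), Eno1 in Rsf1Δ (0.135 without WT replicate 2), Hk2 in Tip5Δ (0.0337 without Tip5Δ replicate 2), Ldhb in Tip5Δ (0.0773 without WT replicate 2), Pfkl in Tip5Δ (0.0212 without Tip5Δ replicate 1) and Pfkfb2 with the Cecr2Δ label (0.0199 without WT replicate 2), again with the highest edgeR adjusted p.

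**Figure D4:**
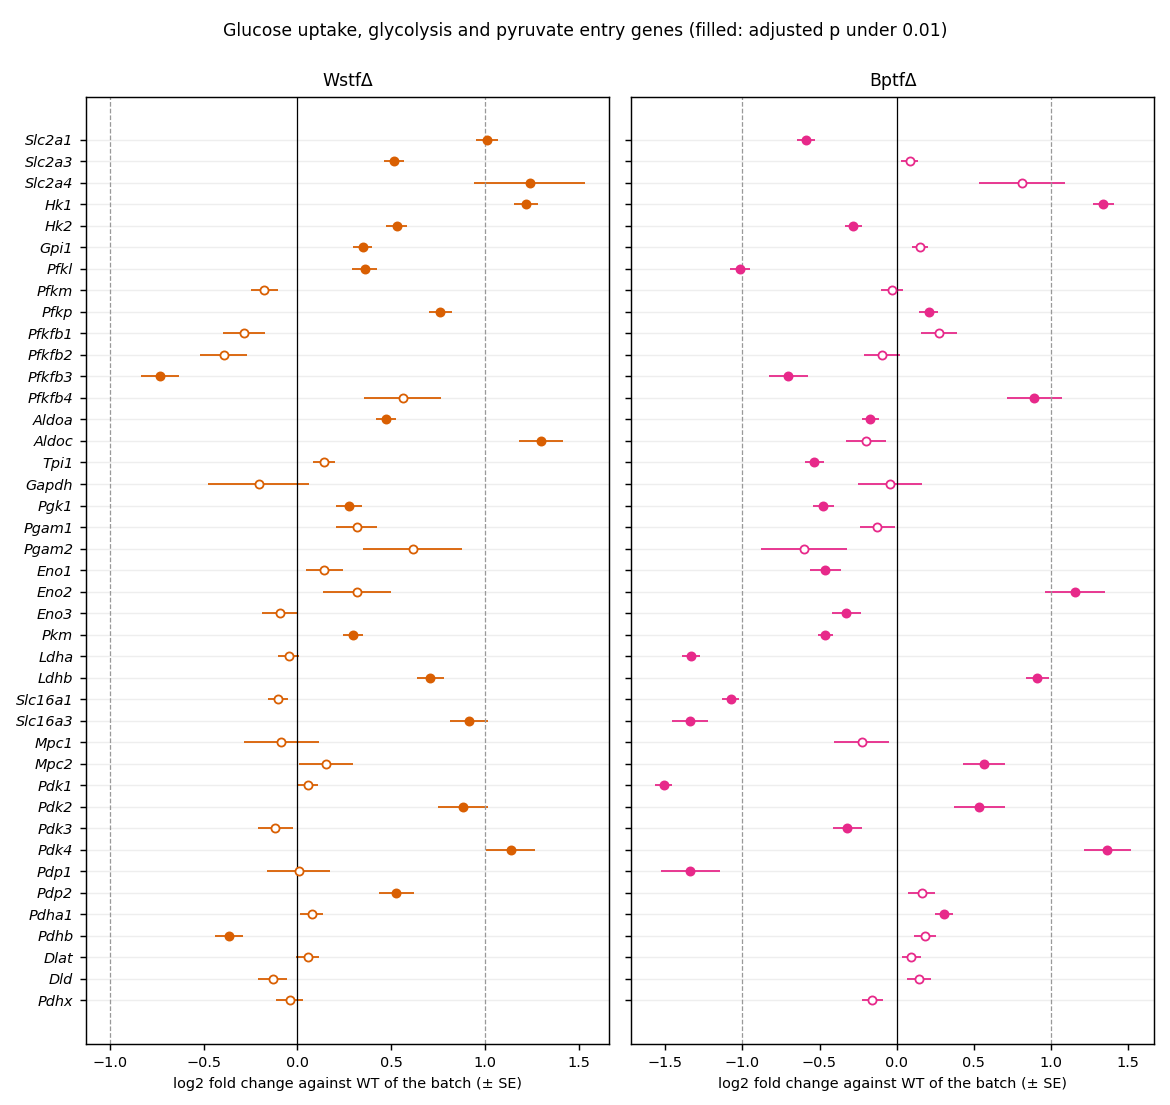
Change of the genes of glucose uptake, glycolysis, lactate export and pyruvate entry in WstfΔ (left) and BptfΔ (right), ordered along the pathway. The horizontal axis gives the log2 fold change against WT of the batch with its standard error, and filled points have an edgeR adjusted p under 0.01. Most filled points in WstfΔ lie right of 0, whereas in BptfΔ Slc2a1, Pfkl, Ldha, Slc16a1, Slc16a3 and Pdk1 lie left of 0 and Hk1, Eno2, Ldhb and Pdk4 right of it.

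The 12 genes that bring pyruvate into the mitochondria or set the activity of pyruvate dehydrogenase were all tested. In BptfΔ 4 rose and 2 fell, where 41.6% of all genes changed, and in WstfΔ 3 and 1, where 34.7% did, so that both counts are near the background. In Acf1Δ 2 rose and 4 fell (31.8% of all genes changed), in the libraries labelled Cecr2Δ 2 and 1 (18.4%), and in Tip5Δ 2 and 0 (9.07%). In Rsf1Δ (20.6%) 0 passed the edgeR test in either direction, and 1 was higher and 1 lower at an unadjusted p under 0.05. In Tip5Δ 1 was lower at an unadjusted p under 0.05. Pdk4, another kinase that inhibits pyruvate dehydrogenase, rose in BptfΔ from 3.36 and 3.79 to 8.800 and 9.59 normalized CPM (log2 fold change 1.36, SE 0.15, edgeR adjusted p = 2.39e-08), where Pdk1 fell. Pdp1, the phosphatase that opposes these kinases, fell (log2 fold change -1.34, SE 0.19, edgeR adjusted p = 1.46e-06), and Mpc2, a subunit of the pyruvate carrier, rose (log2 fold change 0.57, SE 0.14, edgeR adjusted p = 0.001). In WstfΔ Pdk4, Pdk2 and the phosphatase Pdp2 rose (log2 change 1.14, adjusted p = 6.42e-08, then log2 change 0.88, adjusted p = 4.04e-06, then log2 change 0.53, adjusted p = 4.91e-05).

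In Acf1Δ, where Pdk1 rose, both subunits of the pyruvate carrier rose (log2 change 0.69, adjusted p = 0.000536 for Mpc1 and log2 change 0.70, adjusted p = 5.62e-05 for Mpc2) and Pdk2 fell (log2 change -0.60, adjusted p = 0.000118). With the Cecr2Δ label, Pdk2 and Pdp1 rose (log2 change 0.58, adjusted p = 2.75e-05, and log2 change 0.57, adjusted p = 0.000593) and Pdhb, a subunit of pyruvate dehydrogenase, fell (log2 change -0.35, adjusted p = 3.53e-05). In Tip5Δ Pdhb and Pdha1, its partner subunit, rose (log2 change 0.32, adjusted p = 0.00211, and log2 change 0.32, adjusted p = 0.000284). Without single libraries calls were lost for Mpc2 in BptfΔ (0.0517 without BptfΔ replicate 1), Pdhb in Tip5Δ (0.0493 without WT replicate 2) and Pdha1 in Tip5Δ (0.0181 without WT replicate 2), with the highest edgeR adjusted p in brackets.

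A further 28 genes are known as HIF targets in other cells. In Rsf1Δ 2 of them rose and 13 fell, where 7.45% of all genes rose and 13.1% fell. In Tip5Δ 3 rose and 7 fell (2.84% and 6.23% of all genes), in WstfΔ 5 and 9 (16.4% and 18.3%), in BptfΔ 6 and 8 (21.4% and 20.2%), in Acf1Δ 6 and 9 (15.1% and 16.7%), and in the libraries labelled Cecr2Δ 7 and 6 (9.52% and 8.83%). Falls also outnumbered rises among all genes in Rsf1Δ, WstfΔ, Tip5Δ and Acf1Δ. The median log2 fold change was -0.31 in Rsf1Δ, -0.15 in Tip5Δ and between -0.082 and -0.0052 in the other 4 lines. With the genes at or under 3 counts set at that floor, the BptfΔ median was -0.038. In WstfΔ, where 8 of the 10 members rose, 5 of these 28 rose.

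P4ha2, a collagen prolyl hydroxylase, went from 61.5 and 55.9 normalized CPM in WT of batch C to 8.32 and 9.07 in BptfΔ (log2 fold change -2.75, SE 0.082, edgeR adjusted p = 5.52e-20). It also fell in Tip5Δ (log2 change -2.11, adjusted p = 1.66e-18), WstfΔ (log2 change -1.77, adjusted p = 2.22e-17) and the libraries labelled Cecr2Δ (log2 change -1.63, adjusted p = 1.29e-17). P4ha1, its paralogue, fell in Tip5Δ (log2 change -1.94, adjusted p = 4.67e-17), and Plod2, a collagen lysyl hydroxylase, in the libraries labelled Cecr2Δ (log2 change -1.13, adjusted p = 9.74e-14). Chosen after their values were seen, P4ha1, P4ha2 and Plod2 fell together in Rsf1Δ, WstfΔ, Tip5Δ, BptfΔ and the libraries labelled Cecr2Δ, with log2 fold changes from -2.75 to -0.94. In Acf1Δ P4ha1 rose (log2 change 0.27, adjusted p = 0.00249), Plod2 fell (log2 change -0.25, adjusted p = 0.00486) and P4ha2 did not pass the test (log2 change 0.16, adjusted p = 0.0373). The 5 lines in which these 3 genes fell together had all 7 primitive endoderm markers lower, with the summed levels given above, whereas in Acf1Δ 3 of these markers rose and 1 fell. The fibroblast markers Col1a1, Col1a2 and Col3a1, which are collagen genes, fell in Rsf1Δ, WstfΔ, Tip5Δ and Acf1Δ, and Col1a2, Col3a1 and Thy1 in BptfΔ, while Thy1 rose in WstfΔ and Pdgfrb fell with the Cecr2Δ label. The summed level of the 6 fibroblast markers was 21.1 to 22.5 normalized CPM in WT of batch A, 11.6 to 12.95 in Rsf1Δ and 21.0 to 25.4 in WstfΔ. It was 34.4 to 34.8 in WT and 19.7 to 24.9 in Tip5Δ, 10.5 to 10.6 in WT and 5.95 to 6.53 in BptfΔ, 20.2 to 21.2 in WT and 17.7 to 18.2 with the Cecr2Δ label, and 27.1 to 27.2 in WT and 15.2 to 15.5 in Acf1Δ. Postn was at 0 in all groups but WT of batches A, B and E and Tip5Δ, and Col1a2 was at 0 in BptfΔ. The part of primitive endoderm cells or of fibroblast-like cells in these decreases was not tested.

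Lox, lysyl oxidase, had 28 to 31 counts in WT of batch A and 12 to 17 in WT of batch E, against 3 to 4 in Rsf1Δ and at most 1 in WstfΔ and Acf1Δ. Car12, a membrane carbonic anhydrase, fell in BptfΔ (log2 change -2.51, adjusted p = 2.88e-08), Rsf1Δ (log2 change -1.67, adjusted p = 7.13e-07), Tip5Δ (log2 change -0.82, adjusted p = 0.00129) and Acf1Δ (log2 change -0.61, adjusted p = 0.00517). Ak4, a mitochondrial adenylate kinase, rose in BptfΔ from 34.96 and 35.4 to 102 and 118 (log2 fold change 1.65, SE 0.076, edgeR adjusted p = 6.07e-16), and Vldlr, a lipoprotein receptor, rose in the libraries labelled Cecr2Δ (log2 change 0.98, adjusted p = 1.4e-05). Bhlhe41, the paralogue of Bhlhe40, fell with it in Rsf1Δ (log2 change -1.48, adjusted p = 0.00466) and Acf1Δ (log2 change -1.44, adjusted p = 0.00783), and did not pass the test in WstfΔ and Tip5Δ, where Bhlhe40 rose (log2 change -0.019, adjusted p = 0.973, and log2 change 0.41, adjusted p = 0.337). Of the HIF targets named, calls were lost without single libraries for Bhlhe41 in Rsf1Δ (0.0718 without Rsf1Δ replicate 1), Bhlhe41 in Acf1Δ (0.119 without Acf1Δ replicate 2), Car12 in Tip5Δ (0.0355 without Tip5Δ replicate 2), Car12 in Acf1Δ (0.161 without WT replicate 2), P4ha1 in Acf1Δ (0.0464 without Acf1Δ replicate 2) and Plod2 in Acf1Δ (0.113 without WT replicate 1), where the brackets give the highest edgeR adjusted p.

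**Figure D5:**
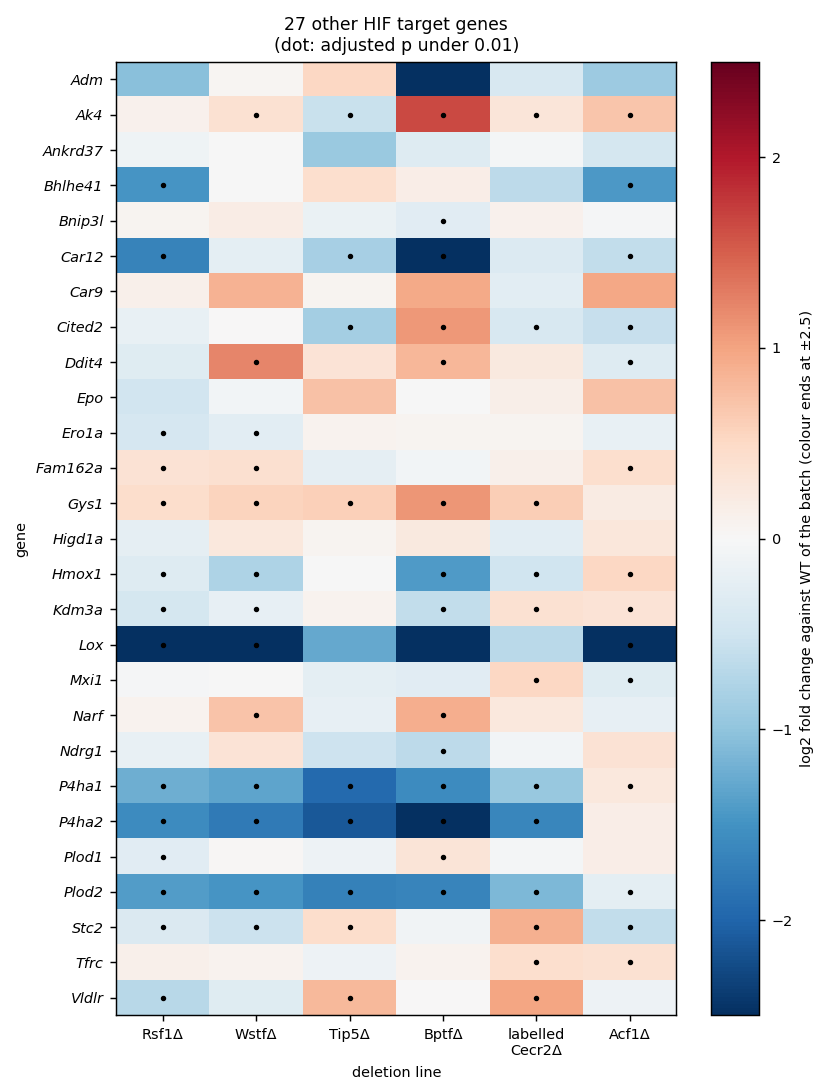
Change of 27 of the 28 other HIF target genes in the 6 deletion lines. Rows are genes in alphabetical order, columns are lines, colour gives the log2 fold change against WT of the batch with the scale ended at -2.5 and 2.5, and dots mark an edgeR adjusted p under 0.01. P4ha1, P4ha2 and Plod2 are blue in all lines but Acf1Δ, where only Plod2 is, faintly, and Ak4 is reddest in BptfΔ.

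For each member, the 3 genes most alike in level across all 24 libraries were taken from Pearson's r of log2 CPM over all genes tested, after the WT mean of the batch was subtracted. These values are descriptions, since the libraries share batches, WT groups and depth. Ldha and Pdk1 were among each other's 3 (r = 0.972, n = 24), and no other pair of members was. Ldha was otherwise closest to Sec61a1 (0.973) and Snrpg (0.97), and Pdk1 to Nol9 (0.983) and Rpn1 (0.972). Pgk1 was closest to Pfkl (0.939), followed by Mrpl53 (0.916) and Ccdc142 (0.905).

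Slc2a1 was closest to Elavl3 (0.936), Tspan13 (0.932) and H1f10 (0.919), and Slc2a3 to Scd1 (0.971), Adam23 (0.962) and Bmf (0.953). For Pfkp they were Epb41l4a (0.938), Sod2 (0.935) and Pacsin1 (0.934), and for Bnip3 Zfp459 and Hsf2bp (both 0.957) and Paip2b (0.936). For Egln3 they were Arhgap22 (0.965), Pltp and Lefty2 (both 0.944), and for Vegfa Dnajc6 (0.966), Nhlrc2 (0.95) and Adamts4 (0.94). For Bhlhe40 they included Krt17 (0.926) and Septin9 (0.923). Apart from Ldha, Pdk1 and Pfkl, none of these genes is on the member, glycolysis or HIF lists.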

How the data were processed

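RNA was sequenced in 24 libraries. The authors aligned reads to mm10 with QuasR in spliced mode and deposited raw counts per gene of the UCSC knownGene annotation, with a gene width; the labels also name bcl2fastq 2.17 and HISAT2. Strand and multi-mapping settings are not given in the sources used here. Of 24594 gene IDs, 24570 matched RefSeq GRCm38 symbols.

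From the counts, edgeR 4.0.16 in R 4.3.3 (TMM, filterByExpr by genotype, legacy quasi-likelihood, terms for batch and genotype, all 24 libraries) compared each line with WT of its batch, with Benjamini-Hochberg adjustment over 15682 genes. The SE of a log2 fold change is its size over the square root of F. Steps were tested on simulated data. Groups came from the sample labels. Same-numbered libraries did not deviate together (r -0.157 to 0.049 over 13 pairs), so the numbers were not used as a block. In groups of 2 libraries both pairs have the same r by construction, so these are fewer than 13 separate values. Replicates differed by 1.38 (WstfΔ) to 20.4 (WT replicates 1 and 2 of batch D) times the sampling noise, with 19.6 in Acf1Δ. No library was thus an exact copy of another. Whether 2 libraries came from the same RNA cannot be told from this ratio.

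The members and lists were chosen with earlier results of these data known. Some genes of the lists are not reported here. Named were all members, at most the 3 largest changes per list and line, 7 HIF pathway genes, the 3 most alike genes per member (r of log2(CPM + 0.1) less the batch's WT mean), the 6 targeted genes, Rpph1 and the genes between Egln3 and Baz1a. Other genes and lines named (paralogues in BptfΔ, Elob, Eloc, P4ha1, P4ha2, Plod2, cell-state markers, enzymes beside Gapdh) were chosen after their values were seen. Alternatives were library size only, no filter, edgeR's newer fit, DESeq2 1.42.0, no batch term, own WT only, the replicate block, without batch C (joint tests) and leaving out each library; the range of all WT libraries, a crossed block and leaving out libraries for list genes were added after seeing the data.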

Additional observations from a re-analysis of the deposited data

Results flagged for a closer look

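The change of each of the 10 members differed between the 6 lines by a joint test of the difference (edgeR, adjusted p under 0.01), as it did for 65.3% of all genes. Between the line with the highest and the line with the lowest change, the log2 fold change spanned 3.27 for Egln3 (WstfΔ against BptfΔ, adjusted p = 4.99e-16), 2.82 for Bnip3 (libraries labelled Cecr2Δ against BptfΔ, 9.02e-09), 2.04 for Ldha (Acf1Δ against BptfΔ, 6.77e-16) and 1.94 for Pdk1 (Acf1Δ against BptfΔ, 7.36e-16). It spanned 2.04 for Bhlhe40 (WstfΔ against Rsf1Δ, 1.22e-14), 1.60 for Slc2a1 (WstfΔ against BptfΔ, 3.6e-14) and 1.23 for Vegfa (BptfΔ against Acf1Δ, 1.77e-10). It spanned 1.14 for Pfkp (WstfΔ against Acf1Δ, 3.8e-11), 0.75 for Pgk1 (WstfΔ against BptfΔ, 4.67e-07) and 0.60 for Slc2a3 (WstfΔ against Acf1Δ, 1.85e-08). Each line is 1 clone, so the deletion and the clone cannot be told apart in these differences. WstfΔ and Rsf1Δ, the pair given for Bhlhe40, are both in batch A and share their WT. The other pairs lie in different batches, each set against its own WT.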

How the results depend on the processing

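Of the members' counts, those in BptfΔ (8 changed, 5 DEGs) and the 10 of 10 that differed between WT batches and between lines stayed within 1.5 times of the reported value under every alternative tried for each (9 and 10 without batch C for the latter 2). The genes behind the BptfΔ counts were not always the same. Over the alternatives the log2 fold change of Vegfa went down to 0.58 (edgeR adjusted p up to 0.0498) and that of Slc2a1 to -1.14. Without a batch term, members changed numbered 0 in Rsf1Δ (1.61% of all genes in that fit), 4 in WstfΔ (7.65%), 0 in Tip5Δ (1.76%), 2 with the Cecr2Δ label (7.6%) and 1 in Acf1Δ (2.22%), and DEGs 0 in Rsf1Δ and 0 in Acf1Δ; WT of all batches then serve as one group. With library size only, 4 members changed in Tip5Δ (9.18%). Fitted alone with WT of the batch, 7 changed in Tip5Δ (24.6%) and 3 in Acf1Δ (16.9%). Changed members that also lay beyond all 11 WT libraries numbered 1 in Rsf1Δ, 2 with the Cecr2Δ label and 2 in Acf1Δ. Leaving out 1 library each gave 2 to 3 changed members in Rsf1Δ, 5 to 7 in WstfΔ (5 without WstfΔ replicate 1), 0 to 1 in Tip5Δ (0 without Tip5Δ replicate 1), 7 to 8 in BptfΔ, 4 to 6 with the Cecr2Δ label and 4 to 5 in Acf1Δ. DEGs were 1 to 2 in WstfΔ (1 without WT replicate 2 of batch A or WstfΔ replicate 1), and their counts in the other lines did not move.

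Direction turned only for changes near 0, save for the model without batch. With library size only, Bhlhe40 was at -0.00059 in BptfΔ and Slc2a1 at -0.0050 in the libraries labelled Cecr2Δ; with own WT only these were -0.012 and -0.0039, and DESeq2 gave -0.0084 for the latter. Without batch, Slc2a3 (0.10), Pgk1 (0.015) and Pdk1 (-0.0010) turned in Rsf1Δ, Ldha (0.20) and Pdk1 (-0.011) in WstfΔ, Bhlhe40 (-0.69) in BptfΔ, Slc2a3 (-0.47), Pdk1 (0.0043) and Bhlhe40 (-0.73) in the libraries labelled Cecr2Δ, and Vegfa (0.26) in Acf1Δ; the Slc2a3 increase is the one reported call among them, and the cause was not tested. Leaving out single libraries, the range crossed 0 for Pgk1 (-0.083 to 0.035) and Slc2a3 (-0.049 to 0.010) in Rsf1Δ, Bhlhe40 in BptfΔ (-0.060 to 0.087), Slc2a1 (-0.034 to 0.046), Pgk1 (-0.014 to 0.11) and Ldha (-0.0078 to 0.055) in the libraries labelled Cecr2Δ, and Bnip3 in Acf1Δ (-0.067 to 0.22).

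The replicate number as a block left 59 of 60 member calls as they were and ended that of Pfkp in BptfΔ (log2 fold change 0.21). Same-numbered libraries of Acf1Δ and its WT had a correlation of -0.157, and with the numbers crossed all 10 member calls stayed. Bnip3, the member with the lowest level, had the widest standard error in each of the 6 lines.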

Other observations

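Gapdh, a glycolytic enzyme often used as a reference gene, was listed at 4.70 to 34.2 normalized CPM over the 24 libraries, with a median of 3.92 per kilobase of gene width. Other enzymes of glycolysis had medians of 442 (Aldoa), 113 (Tpi1), 84.3 (Pgk1), 51.4 (Eno1) and 415 (Pkm) normalized CPM per kilobase. The mouse genome holds many processed copies of Gapdh, and how reads that match several places were counted is not given in the sources used here, so a Gapdh ratio from these counts cannot be read as one to a stable reference. These genes were picked after their values were seen.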
